A study of Rattus norvegicus with 2 samples.

Results

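Csf1r, Csf1 and Il34 encode the CSF1 receptor and its 2 ligands, and they were described in droplet single-cell RNA data from rat hippocampal microglia. The genes were taken by their symbols, and all 3 were present (Csf1r, ENSRNOG00000018414; Csf1, ENSRNOG00000018659; Il34, ENSRNOG00000017602) among the 32623 genes counted. Cells had been isolated from the hippocampus of male embryos at gestational day 20 by flow cytometry. The glucocorticoid drug dexamethasone had been given before birth to 1 pool of 7 male embryos, and the other pool of 7 was the control, with 1 library made from each. Dose, strain and the antibodies of the sort are not given in the sources used here, and pooling leaves no value for a single embryo.

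CSF1R is a receptor tyrosine kinase of macrophages and their progenitors, and microglia depend on its signal for survival and proliferation. CSF1 and interleukin 34 bind the same receptor through different contact sites. In the adult mouse brain, IL-34 comes mainly from neurons of the forebrain, and CSF1 comes from glia and from other cells including microglia.

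The dexamethasone library held 4328 barcodes with 42611920 unique molecular identifiers (UMIs, each a counted RNA molecule), and the control library 8342 barcodes with 69940778 UMIs. After filtering, 4198 dexamethasone and 8044 control cells were used, and 5 barcodes were shared by the libraries. Cells were placed in classes by the summed UMIs of marker genes per 10000 UMIs of the cell, and none of the 3 genes was a marker. The microglia gate held 3263 dexamethasone and 6183 control cells, with medians of 9130 and 7954 UMIs. Their median marker level was 35.4 per 10000 in dexamethasone and 45.7 in control cells, and their medians for neuronal, glial and granulocyte markers were 0. Of the listed markers Siglech was close to absent: after every cell was reduced at random to 4000 UMIs (thinning), 0 of 3120 dexamethasone and 3 of 5692 control cells carried it, whereas Tmem119 was carried by 764 and 1576 cells. The mitochondrial share of UMIs in microglia-gated cells was 3.10% in the dexamethasone and 5.97% in the control library, and its part in the library differences below was not tested. Each condition is 1 library, so no difference could be tested. Levels are the UMIs of a gene as CPM of all UMIs, both summed over the cells, and intervals are exact 95% intervals that cover counting error only.

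Csf1r was carried by nearly every macrophage. Microglia-gated cells held 83.0% of all Csf1r UMIs in the dexamethasone and 83.1% in the control library, and border-associated macrophages, the macrophages of the meninges and vessel spaces, held 15.1% and 15.5%. In microglia-gated cells 3236 of 3263 dexamethasone cells (99.2%) and 6123 of 6183 control cells (99.0%) had at least 1 Csf1r UMI. Border-associated-macrophage-gated cells were chosen by Mrc1, Ms4a7, Cd163, Clec10a, Ccl24 and Stab1. They had the highest level of the gated classes, at 2209 CPM (2166 to 2252) in dexamethasone and 2198 CPM (2165 to 2232) in control. Microglia-gated cells stood at 1701 CPM (1687 to 1715) in dexamethasone and 1590 CPM (1580 to 1601) in control. The log2 ratio of border-associated over microglia-gated cells was 0.38 (0.35 to 0.41) in dexamethasone and 0.47 (0.44 to 0.49) in control. Border-associated cells were therefore above microglia in both libraries by more than counting error.

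Among border-associated cells the level differed little. Those with at least 3 UMIs of the scavenger receptor gene Cd163, the lectin gene Clec10a or the chemokine gene Ccl24 had 2013 CPM of Csf1r in dexamethasone and 2026 CPM in control. The remaining border-associated cells had 2250 CPM in dexamethasone and 2271 CPM in control. The log2 ratio of carrying over remaining cells was -0.16 (-0.24 to -0.08) in dexamethasone and -0.16 (-0.21 to -0.12) in control.

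Outside the macrophages Csf1r was low. Granulocyte/monocyte-gated cells, marked by S100a8, S100a9 and other granule genes, carried 256 CPM in 52 dexamethasone and 285 CPM in 37 control cells. Neuron-gated cells had 59.5 CPM in dexamethasone and 84.9 CPM in control, and erythroid-gated cells had 18.6 and 36.3 CPM in the same order of libraries. Red cell precursors are not known to express the receptor. In dexamethasone their 33 UMIs lay in 11 of 94 cells, and 1 cell held 11 of them. In control their 87 UMIs were spread over 45 of 118 cells, and the richest cell held 10. The 10 richest cells held 97.0% of these UMIs in dexamethasone and 50.6% in control. After each cell was thinned to 1500 UMIs, Csf1r was found in 87.8% of dexamethasone and 87.9% of control microglia-gated cells, and in 93.4% and 95.1% of border-associated cells. The thinned share was 37.3% in dexamethasone and 33.3% in control granulocyte/monocyte-gated cells. It was 11.3% and 12.05% in neuron-gated cells, and 2.13% and 4.24% in erythroid-gated cells. Before thinning, median depths were 4949 and 1661.5 UMIs in neuron-gated, and 18127 and 21069.5 UMIs in erythroid-gated, dexamethasone and control cells. Thinning left out 23 of 76 dexamethasone and 144 of 310 control neuron-gated cells, which were shallower than 1500 UMIs. Tyrobp, a macrophage signalling adaptor, showed the same kind of low level, at 259 CPM in dexamethasone and 256 CPM in control neuron-gated cells against 4234 and 3871 CPM in microglia-gated cells. The Csf1r share of neuron-gated cells was above that of erythroid-gated cells, and the part of free RNA or of doublets in it was not tested.

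**Figure D1:**
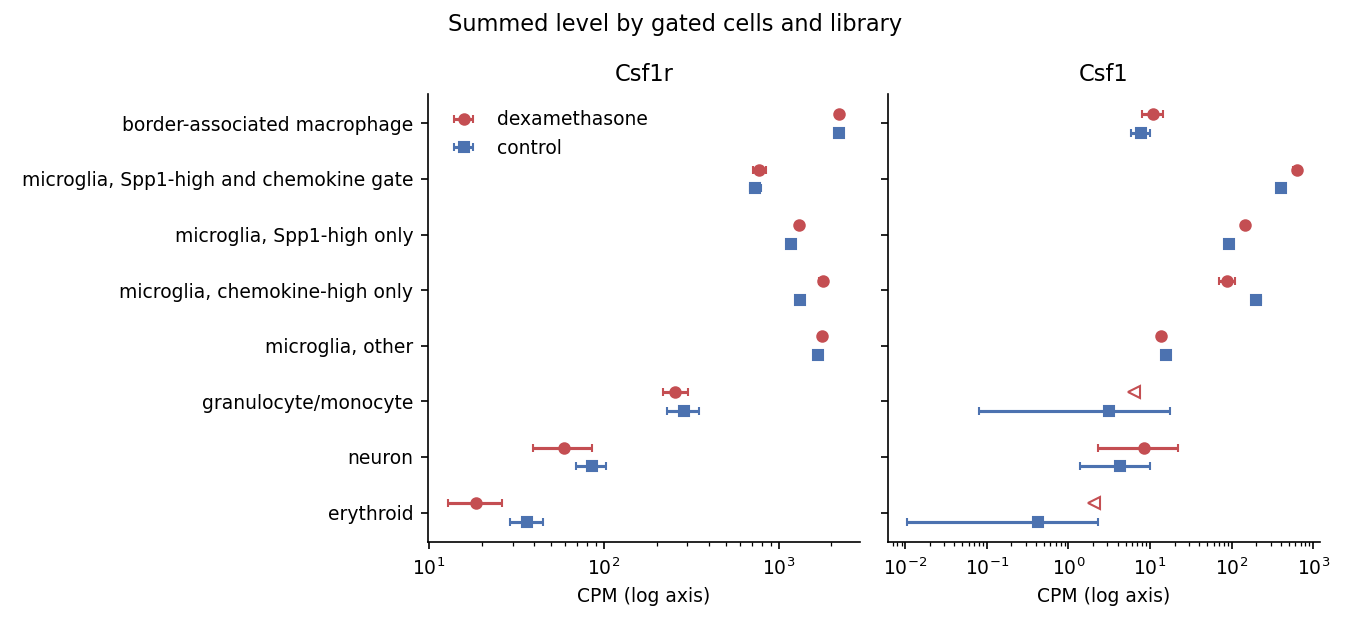
Summed level (CPM, log axis) of Csf1r at left and Csf1 at right in gated cells, with red circles for the dexamethasone and blue squares for the control library. Bars are exact 95% counting intervals, and open triangles mark the upper bound where no UMI was counted. Among the groups drawn, Csf1r was highest in border-associated macrophages at 2209 and 2198 CPM. Csf1 was highest in microglia past both the Spp1-high and the chemokine gate at 628 and 408 CPM.

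Within microglia the receptor followed the cells' state. Spp1-high cells were gated on Spp1 (osteopontin), Gpnmb (a lysosome-associated glycoprotein) and Lpl (lipoprotein lipase), genes of the amoeboid microglia found in developing white matter of mice. They numbered 337 of 3263 dexamethasone cells (10.3%) and 552 of 6183 control cells (8.93%). Csf1r stood at 1225 CPM (1192 to 1259) in Spp1-high against 1773 CPM in the remaining dexamethasone microglia. In the control library it stood at 1106 CPM (1081 to 1131) in Spp1-high against 1657 CPM in the remaining microglia. The log2 ratio of Spp1-high over the rest was -0.53 (-0.57 to -0.49) in dexamethasone and -0.58 (-0.62 to -0.55) in control. Of all genes tested, 18.3% in dexamethasone and 18.7% in control were lower in Spp1-high cells by at least 0.5 on the log2 scale, so a difference of this size was common. When Leiden clusters replaced the gates, the values were -0.25 in dexamethasone and -0.37 in control.

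The lower Csf1r level was graded. Microglia with no UMI of the 3 Spp1-state genes had 1882 CPM in dexamethasone and 1793 CPM in control. At 2 to 5 such UMIs per 10000 the level was 1634 CPM in dexamethasone and 1499 CPM in control. At 10 to 20 it was 1456 and 1191 CPM, and at 50 or more it was 904 and 916 CPM in the same order of libraries. Csf1r was thus lower in each successive bin of both libraries. Nearly every cell still carried the receptor, since 96.0% of dexamethasone and 95.3% of control Spp1-high cells had a Csf1r UMI after thinning to 4000 UMIs, against 99.0% and 99.1% of the microglia that were not Spp1-high. Unthinned, the shares in Spp1-high cells were 98.2% and 99.5%.

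Csf1r was also higher in cells with more UMIs of the homeostatic genes of microglia. Non-cycling microglia in neither the Spp1-high nor the chemokine-high state were thinned to 4000 UMIs and split by their summed UMIs of P2ry12, P2ry13, Tmem119, Siglech and Sall1. Cells with 0 or 1 such UMI had 1654 CPM of Csf1r in dexamethasone and 1562 CPM in control. Cells with 2 had 1882 and 1795 CPM, cells with 3 or 4 had 2134 and 1956 CPM, and cells with 5 to 14 had 2385 and 2143 CPM, dexamethasone first in each pair. The receptor level was higher at every step in both libraries. Csf1 showed no such order, at 14.3, 15.4, 18.3 and 6.68 CPM over the same steps in dexamethasone and 19.1, 19.5, 16.0 and 13.9 CPM in control. All of these cells share a library and were measured by the same UMIs, so the steps describe cells and not replicates.

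Chemokine-high microglia, gated on Ccl3 and Ccl4 and not Spp1-high, were 103 dexamethasone and 116 control cells. Their Csf1r level was 1787 CPM (1701 to 1876) in dexamethasone and 1326 CPM (1261 to 1394) in control. Against the other microglia the log2 ratio was 0.01 (-0.06 to 0.08) in dexamethasone and -0.33 (-0.40 to -0.26) in control. Over the bins of Ccl3 and Ccl4 UMIs the receptor was nevertheless lower at the high end of both libraries, at 993 CPM in 9 dexamethasone and 647 CPM in 13 control cells with 50 or more per 10000, against 1794 and 1714 CPM in cells with none. These top bins held under 20 cells each. The next lower bin, 20 to 50 per 10000, held 20 dexamethasone cells at 1192 CPM and 48 control cells at 946 CPM.

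**Figure D2:**
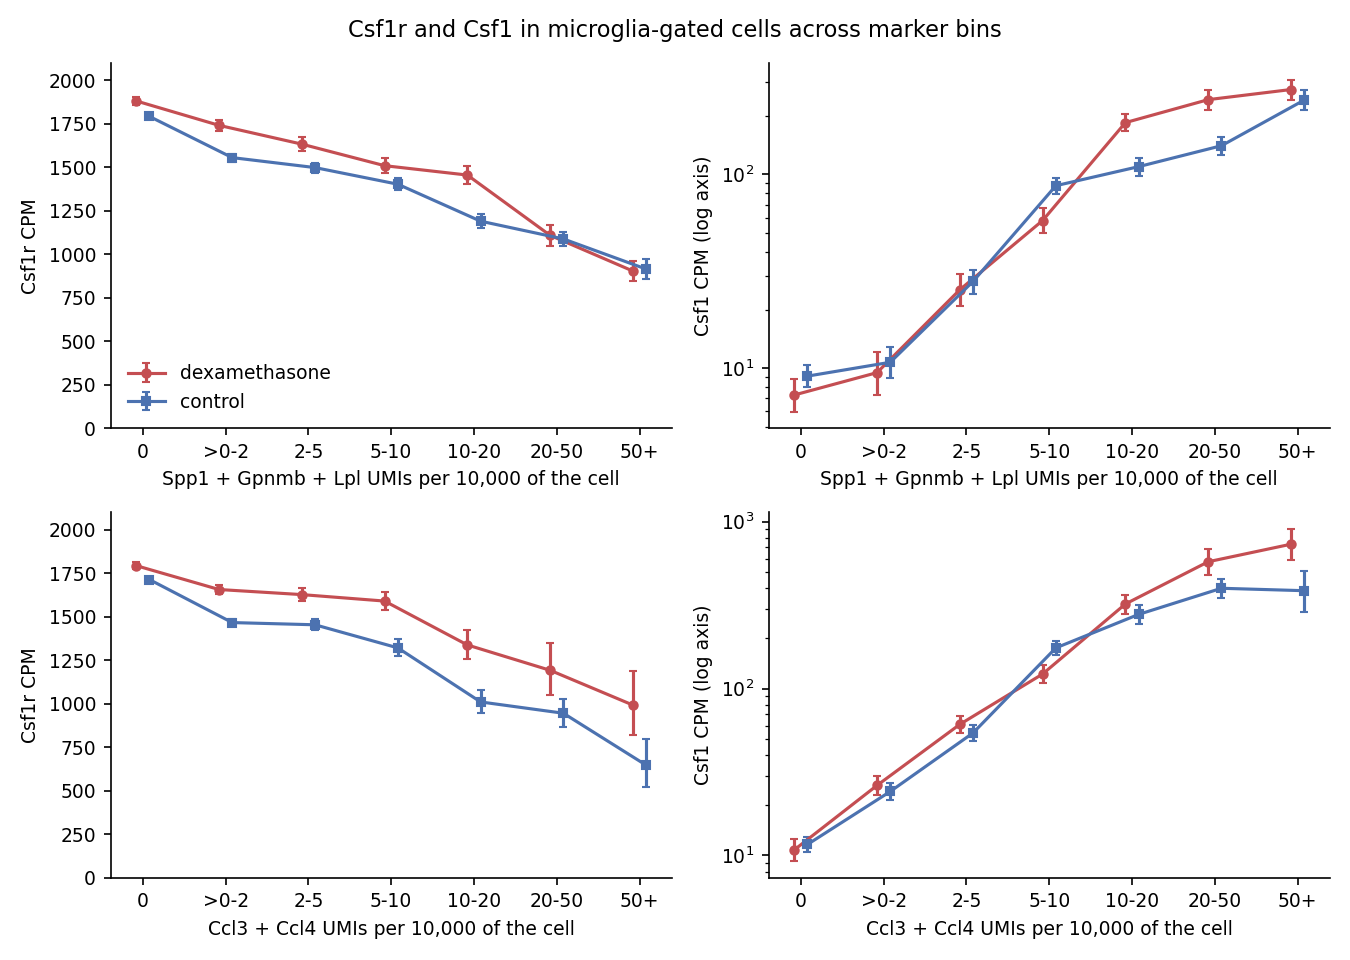
Csf1r (left, linear axis) and Csf1 (right, log axis) in microglia-gated cells binned by the summed UMIs of Spp1, Gpnmb and Lpl (top) or of Ccl3 and Ccl4 (bottom) per 10000 UMIs of the cell; red circles are the dexamethasone library, blue squares the control library, and bars exact 95% counting intervals. Across the Spp1-state bins, Csf1r ran down to 904 and 916 CPM while Csf1 ran up to 274 and 242 CPM.

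Relative to all UMIs, cycling cells carried slightly less receptor RNA. Cells were gated as S phase by replication genes such as Mcm2 and Pcna, and as G2/M by mitotic genes such as Cdk1 and Aurkb, and 972 dexamethasone and 1771 control microglia were cycling. Csf1r was at 1598 CPM in cycling and 1751 CPM in non-cycling dexamethasone microglia, and at 1458 CPM in cycling and 1657 CPM in non-cycling control microglia. The log2 ratio of cycling over non-cycling was -0.13 (-0.16 to -0.11) in dexamethasone and -0.18 (-0.21 to -0.16) in control. Per cell the direction was the other way, with 17.9 Csf1r UMIs in cycling and 16.9 in non-cycling dexamethasone cells and 15.3 and 14.0 in control, and cycling cells held more UMIs in all (medians of 10038 against 8739 in dexamethasone and 9500 against 7462.5 in control). Genes lower by at least 0.5 in cycling cells made up 4.47% of those tested in dexamethasone and 5.77% in control, and genes higher by that size 12.2% and 12.6%; Csf1r was in neither set. Over all genes tested the median log2 ratio was 0.05 in dexamethasone and 0.04 in control.

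The same order held inside the main state. Among the microglia in neither state gate, Csf1r was 1680 CPM in S, 1578 CPM in G2/M and 1853 CPM in non-cycling dexamethasone cells. In control it was 1537 CPM in S, 1466 CPM in G2/M and 1761 CPM in non-cycling cells. In Spp1-high cells the ratio of cycling over non-cycling was -0.12 (-0.23 to -0.01) in dexamethasone and -0.29 (-0.38 to -0.19) in control. Cycling cells were still receptor-bearing, with a Csf1r UMI in 99.3% of dexamethasone and 98.9% of control cycling microglia.

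Between the libraries Csf1r differed little. In microglia-gated cells dexamethasone over control stood at a log2 ratio of 0.10 (0.08 to 0.11), a 1.07-fold level. This ratio was above that of 69.3% of the 10564 genes tested, whose median was -0.01. In the same comparison 3.57% of genes were higher and 3.45% lower by at least 0.5 in log2, and neither Csf1r nor Csf1 reached that size. The ratio was above 0 in the Spp1-high (0.15), chemokine-high (0.43) and other microglia (0.09), and in S (0.13), G2/M (0.13) and non-cycling cells (0.08). In border-associated macrophages it was 0.01 (-0.03 to 0.04). Under the alternatives tried it lay between 0.06 and 0.15 in microglia-gated cells. Counting intervals do not cover differences between embryos, pools or captures, so the ratio compares these libraries only.

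Csf1, the ligand, was a gene of few microglia. It gave 1491 UMIs in the dexamethasone and 2057 in the control library, and microglia-gated cells held 95.2% of them in each. Microglia-gated cells carried 43.0 CPM (40.8 to 45.3) in dexamethasone and 35.0 CPM (33.5 to 36.6) in control. Border-associated macrophages had 10.8 CPM (8.03 to 14.3) in dexamethasone and 7.67 CPM (5.82 to 9.92) in control, with log2 ratios over microglia of -1.99 (-2.43 to -1.58) and -2.19 (-2.59 to -1.82). Summed over all cells of each class, receptor and ligand therefore ran in opposite directions between these macrophage classes. Microglia in neither the Spp1-high nor the chemokine-high state had only 13.8 CPM of Csf1 in dexamethasone and 15.7 CPM in control. In dexamethasone that level lay inside the counting interval of the border-associated macrophages. Neuron-gated cells held 4 Csf1 UMIs in dexamethasone and 5 in control, granulocyte/monocyte-gated cells 0 and 1, and erythroid-gated cells 0 and 1. No Csf1 UMI was found in the 8 dexamethasone and 34 control radial-glia/astrocyte-gated cells. Their exact intervals reach 36.9% and 10.3% of cells with a UMI, so shares up to these are not excluded at this number of cells. Levels of Csf1 and Csf1r are not compared with each other, because UMI capture differs between genes.

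Csf1 was concentrated in the Spp1-high state. It reached 222 CPM (208 to 236) in Spp1-high against 16.1 CPM (14.7 to 17.6) in the remaining dexamethasone microglia. In the control library it reached 144 CPM (135 to 153) in Spp1-high against 20.1 CPM (18.9 to 21.4) in the remaining microglia. The log2 ratio was 3.79 (3.62 to 3.95) in dexamethasone, a 13.8-fold level, and 2.84 (2.71 to 2.97) in control, a 7.14-fold level. Genes higher by at least 0.5 made up 7.26% of 9294 tested in dexamethasone and 7.25% of 10011 in control. By size of ratio Csf1 was 4th in dexamethasone, after Spp1 itself and the CD8 chain genes Cd8b and Cd8a, and 18th in control. The Spp1-high cells, 10.3% of dexamethasone and 8.93% of control microglia, held 67.5% and 49.5% of the microglial Csf1 UMIs. Under the alternatives tried the ratio lay between 3.18 and 3.98 in dexamethasone and between 2.76 and 3.30 in control.

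Spp1-high cells were also deeper, with medians of 11692 UMIs in dexamethasone and 11497 in control, against 8892 and 7734 in the microglia of neither state. After thinning to 4000 UMIs, Csf1 was found in 31.7% (26.6 to 37.1) of dexamethasone and 26.7% (22.9 to 30.6) of control Spp1-high cells. In the microglia of neither state the thinned share was 4.56% (3.803 to 5.415) in dexamethasone and 4.94% (4.36 to 5.58) in control. The unthinned shares were 43.3% and 41.8% in Spp1-high cells, and 9.71% and 8.90% in cells of neither state. The difference between states thus remained at equal depth. Over all phases, the median for border-associated macrophage markers was not raised in Spp1-high cells. It was 10.7 per 10000 in dexamethasone and 9.57 in control, against 11.8 and 12.8 in cells of neither state. In S phase it was higher in Spp1-high cells, at 19.6 in dexamethasone and 21.4 in control, against 14.2 and 14.6. In non-cycling cells it was lower in both libraries, and in G2/M cells lower in dexamethasone and slightly higher in control. Cells past the border gate had been left out of the microglia beforehand. The part of border-associated macrophages in the Csf1 difference was not tested. The radial-glia/astrocyte list had medians of 0.893 in dexamethasone and 0.796 in control Spp1-high cells, against 0 in cells of neither state, and its part in the Csf1 difference was not tested.

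Csf1 was higher in each successive bin of the 3 gate genes. It was 7.29 CPM in dexamethasone and 9.12 CPM in control cells with none of their UMIs, 25.4 and 28.1 CPM at 2 to 5 per 10000, and 57.9 and 87.5 CPM at 5 to 10. Above the gate it was 185 and 110 CPM at 10 to 20, 243 and 141 CPM at 20 to 50, and 274 and 242 CPM at 50 or more, dexamethasone first in each pair. Cells just under the gate level therefore carried more Csf1 in control, and cells just over it more in dexamethasone. In all, 151 dexamethasone and 233 control microglia lay within 1.25-fold of the level. Each gate gene alone showed the relation: after thinning, Csf1 was found in 22.5% of dexamethasone and 19.0% of control cells with an Lpl UMI, against 5.92% and 5.64% of cells without one. For Gpnmb the shares were 19.2% and 17.3% in cells with a UMI and 4.39% and 4.55% in cells without. For Spp1 they were 18.6% and 15.4% in cells with a UMI and 6.32% and 6.16% in cells without. The homeostatic genes were mixed. P2ry12, a purinergic receptor gene, went the other way, with Csf1 in 5.33% of dexamethasone and 4.81% of control cells that carried it and in 10.4% and 10.5% of cells that did not. P2ry13 and Tmem119 had the direction of P2ry12. Sall1, a transcription factor gene of microglia, had that of the gate genes, with Csf1 in 9.28% of dexamethasone and 7.95% of control cells that carried it and in 6.53% and 6.62% of cells that did not.

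Csf1 was also high with the genes Ccl3 and Ccl4, which encode inflammatory chemokines. Chemokine-high cells outside the Spp1-high gate had 87.3 CPM (69.1 to 109) in dexamethasone and 201 CPM (176 to 228) in control, with log2 ratios over the microglia of neither state of 2.67 (2.30 to 3.02) and 3.68 (3.46 to 3.89). The highest levels were in cells that passed both gates. The 45 dexamethasone cells of this kind had 628 CPM (569 to 690), and the 77 control cells had 408 CPM (371 to 448). Spp1-high cells without the chemokine gate had 146 CPM (134 to 159) in dexamethasone and 93.2 CPM (85.4 to 101) in control. The log2 ratio of Spp1-high cells with over those without the chemokine gate was 2.10 (1.91 to 2.29) in dexamethasone and 2.13 (1.94 to 2.31) in control, with Csf1r going the other way at -0.76 and -0.68. The chemokine gate is a cut through a range, with 116 dexamethasone and 137 control cells within 1.25-fold of its level.

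A small number of cells held much of the ligand. Cells with 10 or more Csf1 UMIs were 37 in dexamethasone and 46 in control, and they held 47.7% and 31.4% of microglial Csf1 UMIs. Of these cells 34 of 37 in dexamethasone (91.9%) and 34 of 46 in control (73.9%) were Spp1-high. The single richest cell held 41 UMIs in dexamethasone and 29 in control. These cells had medians of 17557 and 17746.5 UMIs against 8748.5 and 7652 in cells without Csf1, and the part of undetected doublets in them was not tested. When the 5% of cells with most UMIs were left out of each library, the ratio of Spp1-high over the rest was 3.57 in dexamethasone and 2.94 in control.

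Cells with Csf1 UMIs also carried the receptor, as nearly all microglia did. At least 1 Csf1r UMI was present in 36 of the 37 dexamethasone and 46 of the 46 control cells with 10 or more Csf1 UMIs, and in 99.1% of dexamethasone and 99.0% of control cells with no Csf1 UMI. The Csf1r level was lower where Csf1 was higher. It was 1763 CPM in dexamethasone and 1660 CPM in control cells with no Csf1 UMI, 1686 and 1482 CPM with 1, 1343 and 1232 CPM with 2, 1034 and 846 CPM with 3 to 9, and 843 and 791 CPM with 10 or more. These cells are grouped by one of the genes described, so the series is a description of the cells.

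**Figure D3:**
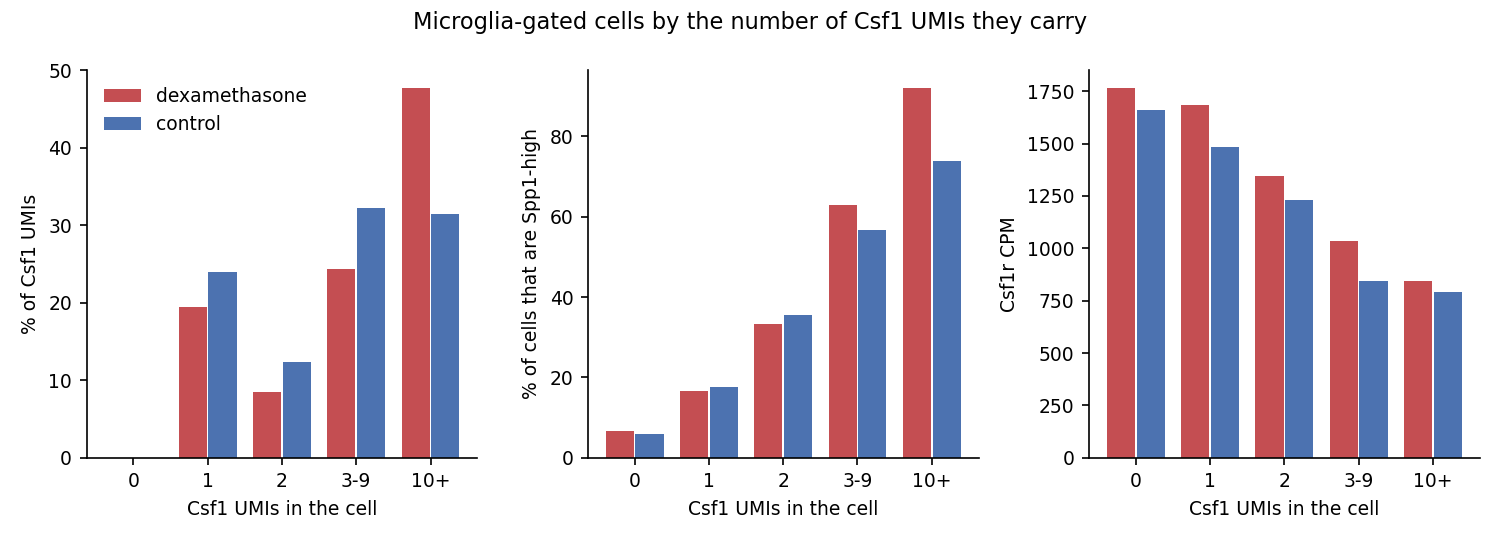
Microglia-gated cells grouped by the number of Csf1 UMIs they carry, red for the dexamethasone and blue for the control library: the share of all microglial Csf1 UMIs (left), the share of the cells that are Spp1-high (middle) and their summed Csf1r level in CPM (right). Cells with 10 or more Csf1 UMIs were 91.9% and 73.9% Spp1-high and had Csf1r levels of 843 and 791 CPM.

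Cycling microglia carried less Csf1. The level was 19.3 CPM (16.7 to 22.0) in cycling and 54.6 CPM (51.6 to 57.8) in non-cycling dexamethasone microglia, and 16.9 CPM (15.1 to 18.8) in cycling and 44.1 CPM (42.0 to 46.3) in non-cycling control microglia. The log2 ratio was -1.51 (-1.72 to -1.29) in dexamethasone and -1.39 (-1.57 to -1.21) in control, and 0.226% and 0.360% of the genes tested had a lower ratio. It reached -2.79 in dexamethasone and -1.95 in control when Leiden clusters replaced the gates. Of Spp1-high cells the share past a cycle gate was 13.6% (10.2 to 17.8) in dexamethasone and 13.04% (10.3 to 16.1) in control, against 32.1% (30.3 to 33.8) and 30.4% (29.2 to 31.6) of microglia in neither state. Within a state the differences in Csf1 were smaller. In Spp1-high cells the ratio of cycling over non-cycling was -0.67 (-0.98 to -0.36) in dexamethasone and -0.55 (-0.84 to -0.26) in control. In the microglia of neither state it was -0.49 (-0.82 to -0.16) in dexamethasone and -0.97 (-1.22 to -0.72) in control. By phase, S over non-cycling cells of neither state stood at -0.03 (-0.42 to 0.34) in dexamethasone, an interval that spans 0. In control it was -0.80 (-1.17 to -0.45). G2/M over non-cycling cells of neither state stood at -1.13 (-1.67 to -0.62) in dexamethasone and -1.09 (-1.42 to -0.77) in control.

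The Spp1-high excess was present in both cycle groups. Among cycling cells Csf1 was at 148 CPM in Spp1-high against 10.9 CPM in dexamethasone cells of neither state, and at 104 CPM against 9.74 CPM in control. The log2 ratios were 3.76 (3.35 to 4.17) in dexamethasone and 3.41 (3.05 to 3.76) in control. Among non-cycling cells they were 3.94 (3.74 to 4.14) and 2.99 (2.84 to 3.14).

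**Figure D4:**
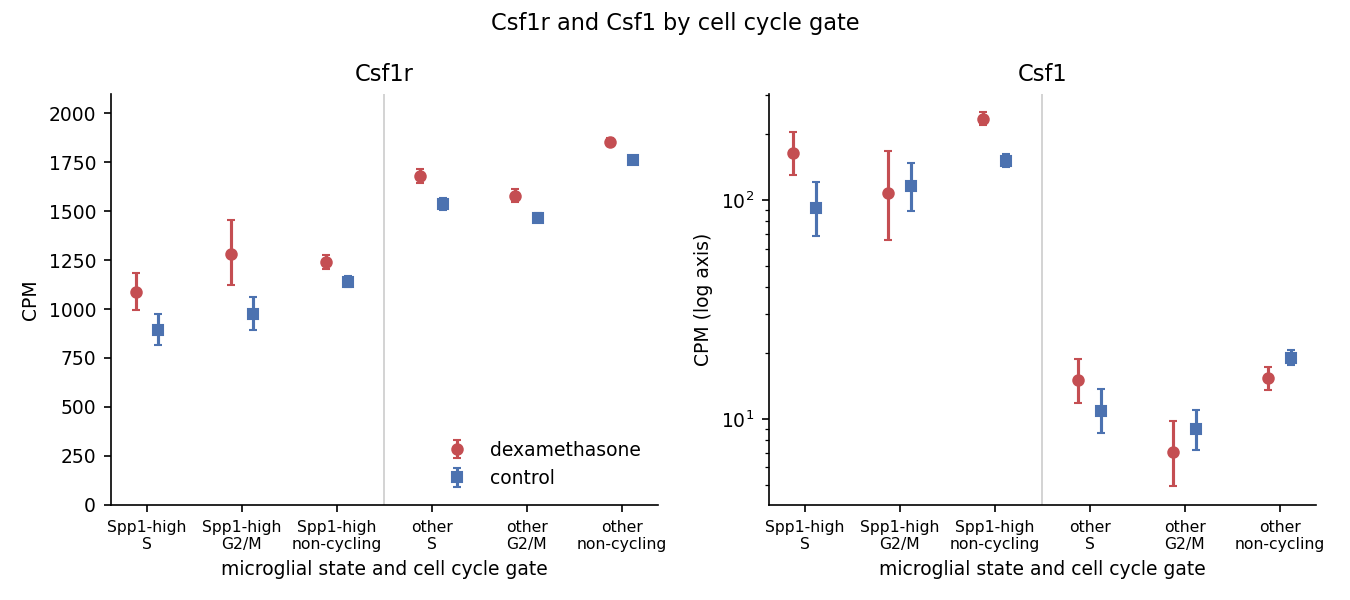
Csf1r (left, linear axis) and Csf1 (right, log axis) in CPM by cell cycle gate in Spp1-high microglia and in microglia of neither state, with red circles for the dexamethasone and blue squares for the control library and exact 95% counting intervals. Among cells of neither state Csf1r was lower in S and G2/M than in non-cycling cells of the same library, and Csf1 was at least 92.1 CPM in every Spp1-high group and at most 19.1 CPM in the other groups.

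Csf1 differed between the libraries in a way that depended on the state. Over all microglia-gated cells it stood at a log2 ratio, dexamethasone over control, of 0.29 (0.20 to 0.39), above 90.1% of genes tested. Without the 10 cells with most Csf1 UMIs in each library, an alternative added after the data were seen, it was 0.13. In Spp1-high cells it was 0.63 (0.50 to 0.76). It was -1.20 (-1.59 to -0.83) in chemokine-high cells and -0.19 (-0.37 to -0.01) in cells of neither state. With gate levels doubled the chemokine-high value was 0.50 and that of the other cells 0.27, and with thinning before gating the other cells stood at 0.00093. The Spp1-high value lay between 0.32 and 0.66 under every alternative tried. By phase the ratio was 0.68 (0.33 to 1.03) in S, -0.67 (-1.13 to -0.23) in G2/M and 0.31 (0.20 to 0.42) in non-cycling microglia. The dexamethasone library held 154 Csf1 UMIs in S cells, 28 of them in 1 cell, and 56 in G2/M cells, 17 of them in 1 cell. In border-associated macrophages it was 0.50 (-0.08 to 1.07), an interval that spans 0.

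**Figure D5:**
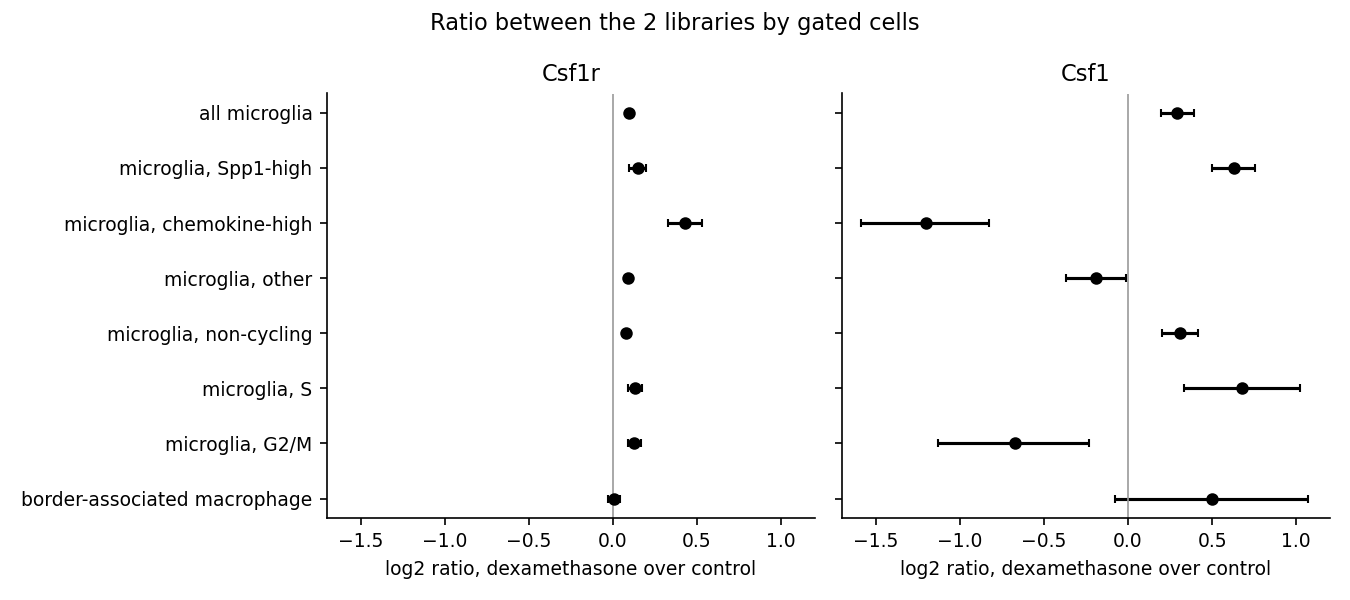
Log2 ratio of dexamethasone over control for Csf1r (left) and Csf1 (right) in microglia-gated cells, their states and phases, and border-associated macrophages, with exact 95% conditional binomial intervals for counting error and a line at 0. Over the microglial groups and the border-associated macrophages drawn, Csf1r lay between 0.01 and 0.43, whereas Csf1 was 0.63 in Spp1-high and -1.20 in chemokine-high microglia.

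Il34 was practically absent from the sorted cells. No UMI was counted in the 4198 dexamethasone cells and 2 in the 8044 control cells, both in microglia of neither state. In microglia-gated cells 0 of 3263 dexamethasone cells carried it, which allows a share of up to 0.0919% at a limit of 3 cells and has an exact upper bound of 0.113%, and 2 of 6183 control cells (0.0323%) carried it. These bounds are on cells with a UMI, not on cells that express the gene. Neuron-gated cells carried none, with exact upper bounds of 4.74% of the 76 dexamethasone and 1.18% of the 310 control cells with a UMI. The sort selected microglia and the control neuron-gated cells were shallow, so the level of Il34 in hippocampal neurons cannot be read from these libraries.

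Of 36 listed adaptors, kinases and phosphatases that signal from the receptor, 0 were higher and 0 lower by at least 0.5 between dexamethasone and control, and the list's median log2 ratio was 0.01 beside -0.01 for all genes. With 3.57% of all genes higher and 3.45% lower by that size, a count of 0 among 36 is near the background. Tyrobp, the adaptor that cooperates with CSF1R, had 4234 CPM in dexamethasone and 3871 CPM in control microglia. Lyn, a Src-family kinase, had 527 and 478 CPM in dexamethasone and control. The largest ratios among genes of at least 20 CPM were those of Hcst, a PI3-kinase adaptor, at 0.46 (0.39 to 0.52), and Ptpn11, the phosphatase SHP2, at -0.34 (-0.43 to -0.25). In Spp1-high cells 1 of 35 tested was higher in dexamethasone, the kinase gene Fyn, and 1 of 36 was lower in control, the adaptor gene Dok2, beside 7.26% of all genes higher in dexamethasone and 18.7% lower in control. Tyrobp was somewhat higher in Spp1-high cells, with log2 ratios of 0.30 in dexamethasone and 0.33 in control, and lower in cycling cells, with -0.33 and -0.31. In cycling cells Dok2 was higher by at least 0.5 in both libraries and Dok3 lower in dexamethasone.

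Of 12 transcription factors known to act on Csf1r, 2 were higher in dexamethasone and 0 lower by that size, with a median of 0.08, beside 3.57% and 3.45% of all genes. Fos, an AP-1 subunit, had 93.6 CPM in dexamethasone and 58.2 CPM in control (0.69, 0.61 to 0.76), and Cebpa, a myeloid lineage factor, had 19.8 and 12.99 CPM (0.61). Spi1, which encodes the lineage factor PU.1, had 245 CPM in dexamethasone and 283 CPM in control (-0.21, -0.25 to -0.17), opposite in sign to Csf1r. Cebpb had 279 CPM in dexamethasone and 240 CPM in control. In Spp1-high cells Cebpa and Mitf, a factor of lysosomal and pigment genes, were higher in both libraries, Mitf by 1.72 in dexamethasone and 1.59 in control. Tfec, Jun and Fos were lower in both, and Maf was lower in control, where 18.3% of all genes in dexamethasone and 18.7% in control were lower by that size. Spi1 itself differed little there, at -0.12 in dexamethasone and -0.14 in control. In cycling over non-cycling cells Cebpa stood at -0.47 in dexamethasone and -0.64 in control, and Mitf at -0.36 in dexamethasone and -0.77 in control, so both passed 0.5 in control only.

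Of 13 target and survival genes of the receptor tested in Spp1-high cells, 8 were lower and 1 higher in dexamethasone, and 7 were lower and 1 higher in control, with medians of -0.52 and -0.65 beside -0.14 and -0.16 for all genes. Over all genes tested 18.3% were lower by this size in dexamethasone and 18.7% in control, and 7.26% and 7.25% higher. Those lower in both libraries were Ccnd1 and Ccnd2 (D-type cyclins), Myc, Dusp6, Spred1 and Spry2 (brakes on ERK signalling) and Bcl2 (a survival gene). Bcl2 was low, at 2.08 CPM in dexamethasone and 1.04 CPM in control Spp1-high cells, and Spry2 at 4.17 and 2.07 CPM. The survival genes Bcl2a1 and Bcl2l1 differed little, Bcl2a1 by 0.008 in dexamethasone and 0.044 in control and Bcl2l1 by 0.053 and -0.045. Ccnd1 differed by -0.78 in dexamethasone and -1.11 in control, Myc by -1.03 in both, and Dusp6 by -0.78 and -0.87. Egr1 was lower by this size in dexamethasone (-0.97) and not in control (-0.32). Egr2, an early growth response factor, was the member that was higher, with 32.9 CPM in Spp1-high against 3.90 CPM in the remaining dexamethasone microglia, and 23.5 against 4.85 CPM in control. Between the libraries 1 of the 13 passed 0.5, beside 3.57% of all genes higher: Egr1, with 39.8 CPM in dexamethasone and 21.8 CPM in control (0.87, 0.75 to 0.98). Dusp6 had 304 CPM in dexamethasone and 256 CPM in control, Ccnd1 had 276 CPM in each, and Ccnd3 had 14.8 and 20.8 CPM (-0.49). In cycling cells 2 of 13 were higher (Ccnd3 and Bcl2) and 1 lower (Egr2) in dexamethasone, and 0 were higher and 2 lower (Egr1 and Egr2) in control, beside 12.2% and 12.6% of all genes higher and 4.47% and 5.77% lower.

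Among proteases and alternative partners of the ligands, 1 of 5 tested was higher and 0 lower in dexamethasone, beside 3.57% and 3.45% of all genes, with a median of -0.16 beside -0.01. That gene was Sdc1, a heparan sulfate proteoglycan that binds IL-34, with 11.8 CPM in dexamethasone and 6.23 CPM in control. Adam10, a sheddase, had 87.3 CPM in dexamethasone and 108 CPM in control (-0.30), and Nrp1, a co-receptor of semaphorins and growth factors, had 189 and 227 CPM (-0.26). In Spp1-high cells Sdc1 was lower in both libraries, as were 18.3% and 18.7% of all genes, and Rhbdf2, a partner of the sheddase ADAM17, was higher in dexamethasone, as were 7.26%. In cycling cells Sdc1 was higher in both libraries, as were 12.2% and 12.6% of all genes, and Rhbdf2 lower in dexamethasone, as were 4.47%. Ptprz1, a second receptor of IL-34, was near 0 in microglia at 0.061 CPM in dexamethasone and 0.27 CPM in control, and stood at 127 and 157 CPM in neuron-gated cells.

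Of 7 related receptors and cytokines tested, 1 was higher and 0 lower in dexamethasone, namely Il3ra with 15.4 CPM in dexamethasone and 10.7 CPM in control, and the median was 0.05 beside -0.01, with 3.57% and 3.45% of all genes past that size. The GM-CSF receptor gene Csf2ra had 90.2 CPM in dexamethasone and 86.1 CPM in control, and the G-CSF receptor gene Csf3r had 33.6 and 34.0 CPM. In Spp1-high cells Flt1, a VEGF receptor gene, was higher in both libraries, as were 7.26% of all genes in dexamethasone and 7.25% in control. Flt1 was low, at 4.86 CPM in dexamethasone and 3.996 CPM in control Spp1-high cells, against 3.13 and 2.81 CPM in the remaining microglia. Flt3lg was lower in both libraries, and Csf3r and Kitlg were lower in control, beside 18.3% and 18.7% of all genes lower. Kitlg was low too, at 0.592 CPM in Spp1-high against 2.91 CPM in the remaining control microglia. In cycling cells 0 of 6 passed 0.5 in dexamethasone, and Csf2rb and Il3ra were lower in control, as were 5.77% of all genes.

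Genes whose pattern was among the most like that of Csf1r were named over 22 gated groups of at least 30 cells, among 9008 genes. They were Ctss (a lysosomal protease), Pld4, Aif1 (encoding the microglial marker IBA1) and Fcgrt (the neonatal Fc receptor), with Pearson r between 0.983 and 0.986. Over the 13 microglial groups alone they were Nckap1l (a regulator of actin in blood cells), Brd1, Gmip and Rps6ka1, with r between 0.951 and 0.979. The genes most like Csf1 over the 22 groups were Myl4, Tnfsf18 (a TNF-family ligand), Chchd10, Coro6 and Cd8b, with r between 0.926 and 0.955. Over the 13 microglial groups they were Coro6, Atp6v1e1 and Atp6v1f (subunits of the lysosomal proton pump), Myl4 and Hexa (a lysosomal enzyme), with r between 0.975 and 0.994. Tnfsf18 had 86.8 CPM in Spp1-high against 8.14 CPM in the remaining dexamethasone microglia, and 59.8 against 7.70 CPM in control. Atp6v1e1 had 468 CPM in Spp1-high against 136 CPM in the remaining dexamethasone microglia, and 447 against 148 CPM in control. The points share libraries and differ in depth and number of cells, so these r values describe the groups and carry no test.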

How the data were processed

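The deposited values are whole-number counts of UMIs per gene and barcode. Per the submitters' processing notes, the authors ran Cell Ranger 7.0.0 with Rnor_6.0; other settings are not given in the sources used here. Gene names come from the deposited feature tables. Barcodes under 200 genes or over 20% mitochondrial UMIs were dropped. Scrublet marked 1 of 4199 dexamethasone and 0 of 8044 control cells, so the caller has not worked and doublets remain.

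Cells were gated on summed marker UMIs per 10000 with at least 3 UMIs, at levels set on the marker distributions: microglia 10 (and not border-associated), border-associated macrophage 10, granulocyte/monocyte 20, erythroid 1000, neuron 15, radial glia/astrocyte 15, choroid plexus 100, Spp1-high 10, chemokine-high 8, S 12 and G2/M 20. Border-associated cells often carry microglial markers, so only that gate took precedence, and cells past 2 or more class gates (33 dexamethasone, 89 control) or none (179 and 298) were set aside. Spp1-high took precedence over chemokine-high, and G2/M over S. Lyve1, Dab2 and Folr2 were left out of the border gate because microglia carried them, and Hopx out of the glial gate because granulocytes did. The genes Cbr2, Ly6c, Hbb-b1, Hbb-bt, Pecam1, Col1a2, Ccnb2 and Mcl1 were among those with no match by symbol and were not analysed here. Of the 10 erythroid markers listed, 7 had a match. Members, lists and markers were chosen with earlier results of these data known.

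Counts were summed per group and scaled to CPM. Intervals are exact Poisson for CPM, Clopper-Pearson for shares and conditional binomial for ratios, at 95%. The ratio intervals and the thinning were checked on simulated data. Shares were compared after thinning to 1500 UMIs between classes and 4000 between states. A count of 0 used a floor of 3 counts or cells. Background counts cover genes with at least 100 UMIs in the cells compared. The genes named are the 3 members, in each list the top 2 by mean CPM and the top 2 by size of ratio (from 20 CPM in either library), and the 5 most like each member by Pearson r of log2(CPM + 1), with clone-type names set aside and some genes not reported here; other list members are named because 5 or fewer passed, after their values were seen, as were the target genes lower in Spp1-high cells. Bcl2a1 and Bcl2l1 were also named after their values were seen. Python 3.11.15, numpy 2.4.6, scipy 1.17.1, pandas 2.3.3 and scanpy 1.11.5 were used. Alternatives were a stricter filter (500 genes, 10% mitochondrial UMIs), gate levels halved or doubled, Leiden clusters (resolution 0.5, members left out), means over cells, thinning before gating, another denominator, leaving out the 5% deepest cells and, for Spp1-high, a gate on Gpnmb and Lpl.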

Additional observations from a re-analysis of the deposited data

Results flagged for a closer look

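The ratio of dexamethasone over control for Csf1 pointed in opposite directions in different microglial states. It was 0.63 in Spp1-high, -1.20 in chemokine-high and -0.19 in microglia of neither state, with the counting interval above 0 in the first and below 0 in the other groups. The underlying levels were 222 CPM in dexamethasone and 144 CPM in control Spp1-high cells, 87.3 and 201 CPM in chemokine-high cells, and 13.8 and 15.7 CPM in the others. The difference between states was not tested, since each condition has 1 library. The chemokine-high value rests on 79 dexamethasone and 235 control UMIs in 103 and 116 cells, and the 10 cells with most Csf1 held 75.9% and 63.0% of them. The directions turned when gate levels were doubled, with a ratio of 0.50 in chemokine-high and 0.27 in the other microglia. With thinning before gating it was -0.20 (-0.85 to 0.44) and 0.00093 (-0.30 to 0.30), and both intervals span 0.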

How the results depend on the processing

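No paired analysis was possible because each condition is 1 library. Of 131 alternative values for 15 ratios under 10 settings, 71 stayed inside the counting interval of the reported value, 57 moved outside it in the same direction and 3 turned. Those 3 include the thinned Csf1 value within the other microglia, 0.00093 (-0.30 to 0.30), whose interval spans 0. All values here are log2 ratios, and the cause of each move was not tested. For Csf1r, dexamethasone over control was 0.066 with gate levels halved, 0.15 doubled, 0.080 with Leiden clusters, 0.058 as a mean over cells, 0.075 thinned and 0.075 without the 5% deepest cells. For Csf1r in Spp1-high over the remaining microglia, the dexamethasone and control values were -0.44 and -0.48 halved, -0.84 and -0.69 doubled, -0.25 and -0.37 with Leiden clusters, -0.47 and -0.46 thinned, -0.48 and -0.48 without the deepest cells, and -0.66 and -0.66 gated on Gpnmb and Lpl; the control mean over cells was -0.53. For Csf1r in cycling over non-cycling cells, dexamethasone gave -0.18 with Leiden clusters and -0.18 as a mean over cells, and control gave -0.13 halved, -0.25 as a mean over cells and -0.21 thinned. For Csf1r in border-associated over microglia-gated cells, dexamethasone gave 0.34 thinned and 0.43 with the denominator free of mitochondrial, ribosomal protein and haemoglobin genes, and control gave 0.39 and 0.52 there, 0.37 halved, 0.56 doubled, 0.49 with Leiden clusters and 0.44 without the deepest cells. For Csf1, dexamethasone over control was 0.40 doubled and 0.13 without the 10 cells with most Csf1 UMIs. For Csf1 in Spp1-high over the remaining microglia, dexamethasone gave 3.18 doubled, 3.51 as a mean over cells, 3.34 thinned, 3.57 without the deepest cells, 3.98 gated on Gpnmb and Lpl and 3.35 without the 10 cells, and control gave 3.30 halved, 3.15 with Leiden clusters and 3.06 gated on Gpnmb and Lpl. For Csf1 in cycling over non-cycling cells, dexamethasone gave -2.32 doubled, -2.79 with Leiden clusters and -1.74 without the deepest cells, and control gave -1.95 with Leiden clusters, -1.04 thinned and -1.95 without the deepest cells. Dexamethasone over control for Csf1 within Spp1-high cells was 0.35 halved, 0.38 with Leiden clusters, 0.48 as a mean over cells, 0.48 thinned and 0.32 without the 10 cells. Within chemokine-high cells it was 0.50 doubled, -0.20 thinned, -0.67 without the deepest cells and -0.77 without the 10 cells, and within the other microglia 0.27 doubled and 0.00093 thinned. No Leiden cluster was assigned to the chemokine-high state, so these last ratios have no value by clusters. Csf1 gave 1420 dexamethasone and 1958 control UMIs in microglia-gated cells, which limits what small groups of cells can show.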
